A study of Mus musculus with 4 samples.

Results

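The pericentromeric ends of the mouse autosomes are the stretches of assembled sequence that lie nearest the centromere. Mouse chromosomes are acrocentric, with the centromere at the end where the coordinates begin. The peaks described here were chosen by position alone, as every peak on chromosomes 1 to 19 that stopped before 8 Mb on mm9, the genome build named in the submitters' processing notes. They numbered 1537 of the 37778 peaks in the list (4.07%). No autosomal peak started before 3 Mb, where the assembled sequence was taken to begin, so each end is 5 Mb long. The lowest start was 3004476, on chromosome 17. Of the members just inside the border, those with the highest stops were on chromosomes 1 (7999999), 4 (7992983) and 18 (7991293). Just outside it lay peaks on chromosomes 17 (stop at 8003087), 18 (8004676) and 2 (8006999), of which the one on chromosome 17 crossed the border.

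MBD1 is a protein with a methyl-CpG-binding domain and with zinc fingers of the CXXC type, and it is known for repressing transcription from methylated DNA and for its role in adult neural stem cells of the hippocampus. The mouse centromere itself is built of minor satellite repeats, and the block beside it of major satellite repeats. Major satellite DNA is rich in methylated CpG and gathers into the dense foci, called chromocenters, at which methyl-CpG-binding proteins are seen in mouse nuclei. These arrays are not part of the assembled chromosome sequence, so the peaks lie in the sequence next to them. Whether that sequence holds fragments of satellite was not analysed here.

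Dentate gyrus tissue came from C57BL6 mice of around 9 weeks whose Mbd1 carried a FLAG tag. Neither the allele that carries the tag nor the animals behind each library are named in the labels. Chromatin was precipitated with an anti-FLAG antibody for 2 ChIP libraries, and 2 input libraries were made without antibody. All 4 libraries came from the tagged line, and excess over input therefore cannot be told apart from background of the antibody.

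A single peak list was deposited for the 4 libraries, and it gives each peak's mean ChIP and mean input counts per bin. A bin was taken here as about 200 bp. No value per library is given, so no difference could be set against replicate error. Comparisons were instead made between stretches of the same chromosome, with the chromosome as the unit. Each end was set beside the next 5 Mb (8 to 13 Mb) and beside everything beyond 8 Mb. Density and covered share were compared over 19 chromosomes and medians over 18. Tests were exact two-sided Wilcoxon signed-rank tests on these paired differences, with Benjamini-Hochberg adjustment over 12 tests. Their p-values describe the spread between chromosomes of this list and not between animals. The list gives no library totals, so depth is unknown.

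The autosomes did not share a common level of peaks at their pericentromeric ends. The number of peaks in the 5 Mb ran from 1 on chromosome 14 to 229 on chromosome 3, with a median of 68 and a mean of 80.9 ± 60.8 (SD, n = 19 chromosomes). The next 5 Mb held 27 to 153 peaks, with a median of 70 and a mean of 73.6 ± 38.1. The 5 ends with the most peaks (chromosomes 3, 13, 8, 9 and 1) held 806 of the 1537 members (52.4%), and the 5 with the fewest (18, 11, 2, 19 and 14) held 86 (5.6%).

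Summed over the autosomes, the ends carried 16.2 peaks per Mb, against 14.7 from 8 to 13 Mb and 15.6 beyond 8 Mb. The pooled ratio to the next 5 Mb was 1.10, with a 95% counting interval of 1.02 to 1.18. It fell to 1.02 when chromosome 8 was left out and to 0.848 when the border was moved to 10 Mb. The ratio to the rest of the chromosomes was 1.04 (0.987 to 1.09). These intervals treat peaks as independent and cover counting error only.

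Chromosome by chromosome, the differences from the next 5 Mb and from the rest went both ways. Density was higher at the end than in the next 5 Mb on 9 chromosomes and lower on 10, with a median difference of -1.4 peaks per Mb (p = 0.891, adjusted p = 1, exact Wilcoxon signed-rank test). Against the rest of the chromosome it was higher on 8 and lower on 11, with a median difference of -0.885 peaks per Mb (p = 1, exact Wilcoxon signed-rank test). The share of bases covered by peaks was 6.48% at the ends, 6.02% from 8 to 13 Mb and 6.11% beyond 8 Mb, and its paired differences did not pass the test either (exact p = 0.891 and 1).

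**Figure D1:**
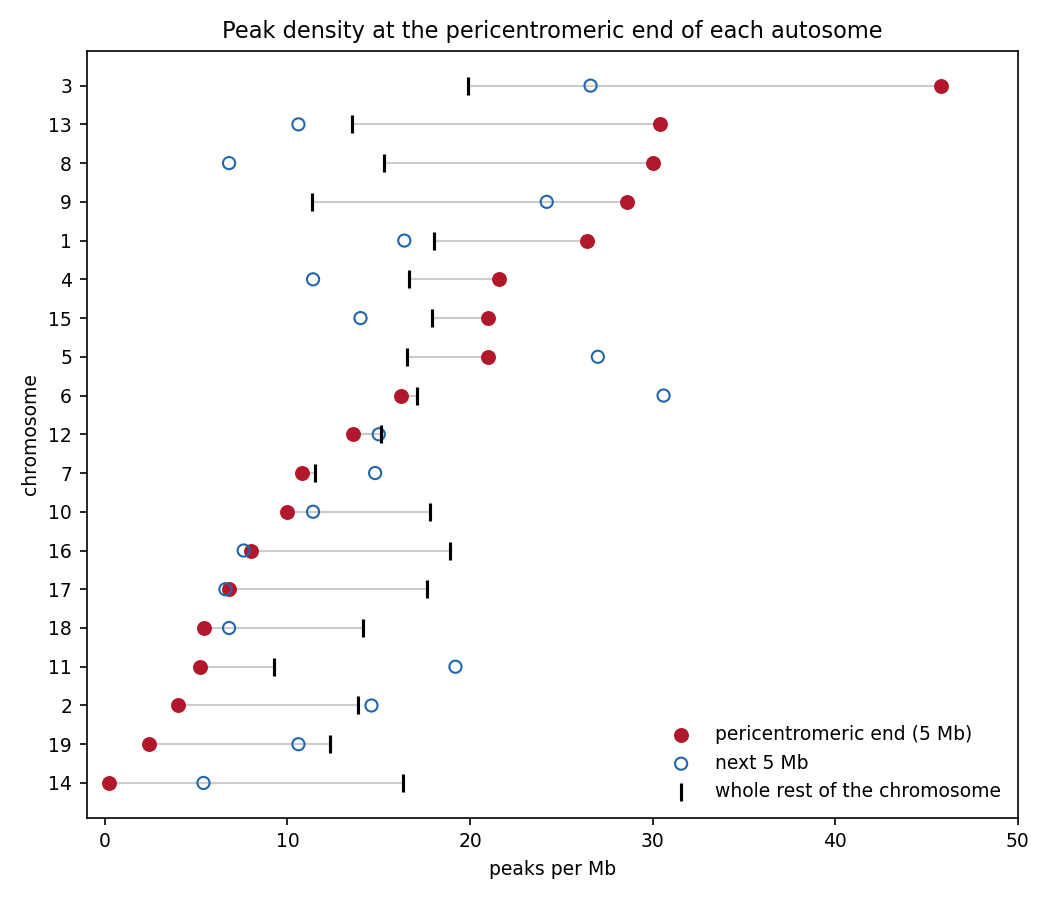
Peaks per Mb (horizontal axis) for each autosome (vertical axis, ordered by density at the end); red points are the pericentromeric 5 Mb, open blue circles the next 5 Mb and black ticks the whole rest of the chromosome. The red points run from 0.2 peaks per Mb on chromosome 14 to 45.8 on chromosome 3 and lie on both sides of the black ticks.

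When each chromosome was divided into windows of 5 Mb from its assembled start, the first window ranked among the densest 25% of its own chromosome on 4 autosomes (3, 8, 9 and 13) and among the sparsest 25% on 6 (2, 10, 14, 16, 18 and 19). It lay above the chromosome's median window on 9 and not above it on 10. On chromosome 9 the first window was the densest of 24, and on chromosomes 14 and 19 it was the sparsest, of 24 and 11. The density of the end was weakly related to that of the rest of its chromosome: Pearson's r was 0.30 and Spearman's rho 0.27 over 19 chromosomes. Without chromosomes 3 and 13, the farthest from the median, r was 0.18. With the next 5 Mb r was 0.45 and rho 0.39, and r was 0.39 without the same pair. These relations are descriptions, since both measures come from the same libraries.

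Dense ends were those of chromosomes 3, 13, 8, 9 and 1. The counting intervals here and below do not cover the spread between windows of the same chromosome. On chromosome 1 the windows of 5 Mb held 9 to 220 peaks, and 11 of 38 held more than the end. Chromosome 3 had 45.8 peaks per Mb at its end, 26.6 in the next 5 Mb and 19.9 beyond 8 Mb, so the end was 2.31 times as dense as the rest (95% counting interval 2.01 to 2.64). Peaks covered 21.0% of this end, the highest share among the 19, and the median distance between neighbours was 10.6 kb. In the order of the RefSeq genes of GRCm38.p6, this arm begins with Hnf4g, a nuclear receptor, and Zfhx4, a large zinc-finger homeobox factor, and continues with Pex2, Pkia, Zc2hc1a and Il7. This order is given for orientation only: that gene table is on another build than the peaks, and no peak was assigned to a gene.

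The end of chromosome 13 had 30.4 peaks per Mb against 10.6 in the next 5 Mb and 13.5 beyond 8 Mb, a ratio to the rest of 2.25 (1.89 to 2.66). The end of chromosome 8 had 30 peaks per Mb against 6.8 in the next 5 Mb, the largest drop at the border among the 19, with a ratio of 4.41 (3.02 to 6.61). Its ratio to the rest was 1.96 (1.65 to 2.32). The RefSeq order on chromosome 8 begins with Insr, which encodes the insulin receptor, followed by Arhgef18 and Pex11g. On chromosome 9 the dense stretch went on past the border, with 28.6 peaks per Mb at the end and 24.2 in the next 5 Mb, while the rest of the chromosome had 11.3. The ratio to the rest was the highest of all, at 2.52 (2.11 to 3.0). Chromosome 1, whose first RefSeq genes are Xkr4, Rp1 and the endodermal factor Sox17, had 26.4 peaks per Mb against 18.01 in its rest (ratio 1.47, 1.22 to 1.74).

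Chromosomes 4, 15, 5, 6, 12 and 7 lay nearer to their own rest. The ends of chromosomes 4 and 5 were denser than the rest by 1.30 times (1.06 to 1.57) and 1.27 times (1.03 to 1.54). On chromosomes 15, 6, 12 and 7 the counting intervals held 1, with ratios of 1.17 (0.954 to 1.43), 0.948 (0.75 to 1.18), 0.899 (0.695 to 1.15) and 0.939 (0.703 to 1.23). Within this group the next 5 Mb could differ from the end in either direction. Chromosome 4 stepped down from 21.6 to 11.4 peaks per Mb, and chromosome 6 stepped up from 16.2 to 30.6. The RefSeq order on chromosome 12 opens with Rab10, Kif3c, Asxl2 and Dtnb, then Dnmt3a, which encodes a de novo DNA methyltransferase, and Pomc.

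Sparse ends were those of chromosomes 10, 16, 17, 18, 11, 2, 19 and 14, all below the rest of their chromosome with counting intervals that excluded 1. Among windows of 5 Mb the ends of chromosomes 11 and 17 were less unusual. On chromosome 11, 8 of 23 windows held fewer peaks than the end and 12 held more. On chromosome 17, 6 of 18 held fewer and 11 held more. Chromosomes 10 and 11 had 0.562 (0.416 to 0.744) and 0.561 times (0.365 to 0.827) the density of their rest. Chromosomes 16, 17 and 18 had 0.423 (0.301 to 0.578), 0.385 (0.266 to 0.541) and 0.382 times (0.25 to 0.558). On these 3 the next 5 Mb was about as sparse as the end, at 7.6, 6.6 and 6.8 peaks per Mb against 8, 6.8 and 5.4. Chromosomes 2 and 19 had 4 and 2.4 peaks per Mb, which is 0.288 (0.176 to 0.446) and 0.195 times (0.100 to 0.343) their rest. Here the next 5 Mb rose to 14.6 and 10.6 peaks per Mb. On chromosome 11 it rose from 5.2 to 19.2.

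Chromosome 14 had a single peak in its first 5 Mb, 0.0123 times the density of its rest (0.00031 to 0.0684). It lay from 7469540 to 7470221 (682 bp), so that 4469.5 kb from the assembled start held none. That peak had the highest mean ChIP of all members, 385 reads per bin, but its input of 85.8 reads per bin was also the highest. ChIP exceeded scaled input 1.85-fold (95% counting interval 1.67 to 2.06). How much of this stretch is assembled or can be mapped was not analysed here.

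Along the ends, peaks came in runs and not at an even rate. The 95 bins of 1 Mb held 0 to 56 peaks, with a median of 12. On chromosome 12 the first pair of bins held 1 peak each and the last pair 28 each. On chromosome 13 the second bin held 49 peaks and the first 8. The fullest bins were the first 2 of chromosome 3 (56 and 51 peaks), the second of chromosome 13, the third of chromosome 9 (47) and bin 4 of chromosome 3 (47). Of the 95 bins 20 held 30 peaks or more and 7 held none, namely bins 1 to 4 of chromosome 14, bins 3 and 4 of chromosome 19 and bin 4 of chromosome 17. From 8 to 13 Mb the median was 11 peaks per bin, with 11 bins of 30 or more and 2 empty ones.

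Added over the 19 autosomes, the bin nearest the centromere held 239 peaks (95% counting interval 210 to 271) and the next 4 held 300, 335, 298 and 365. The first bin was therefore the lowest of the 5. The sum dropped to 198 (171 to 228) from 8 to 9 Mb and was back at 356 from 12 to 13 Mb. The sums did not rise steadily toward the centromere.

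**Figure D2:**
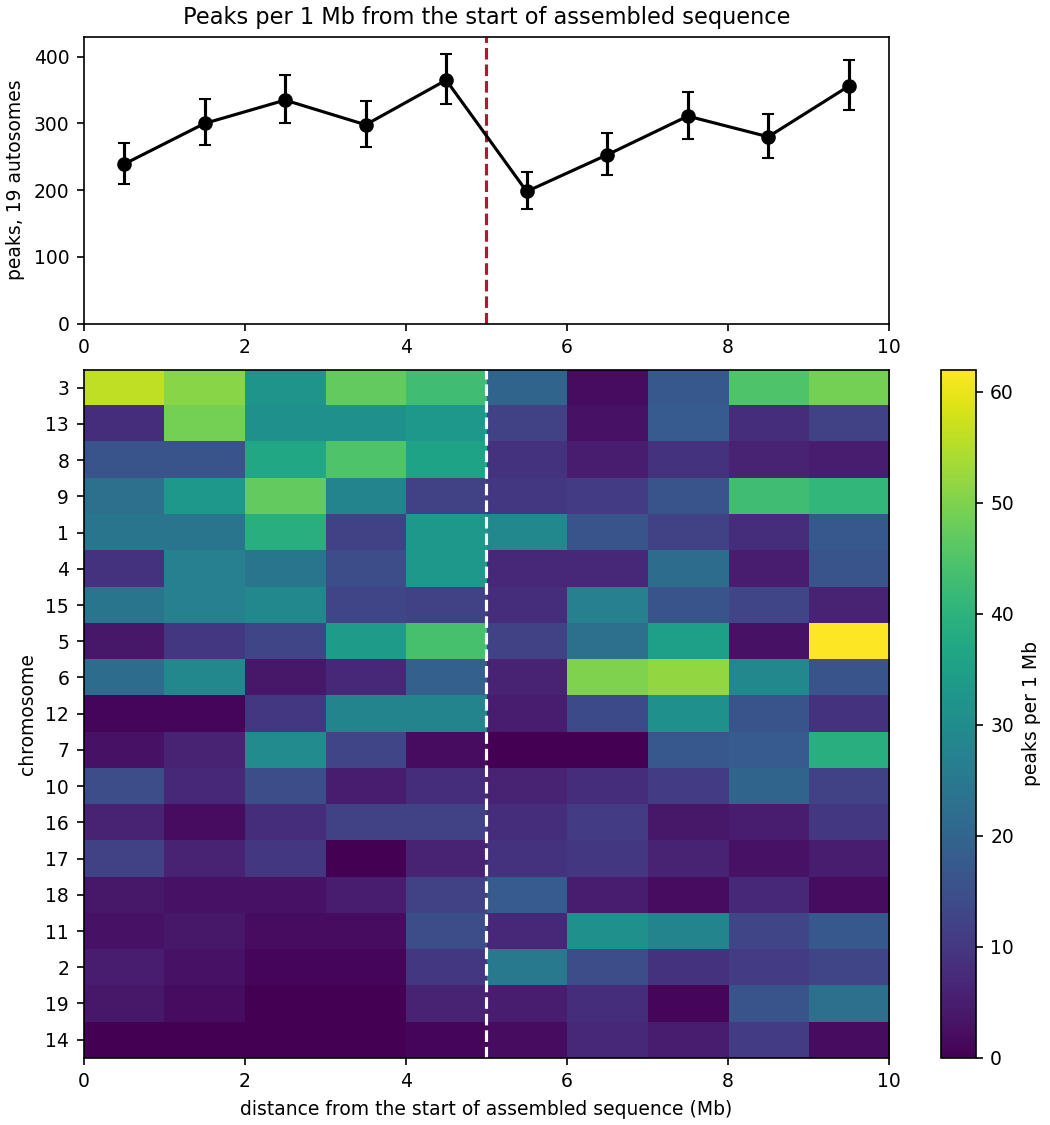
The upper panel gives the peaks of all 19 autosomes per 1 Mb bin against the distance from the assembled start (Mb), with 95% counting intervals; the lower panel gives the same bins for each chromosome, ordered by the density of its end, with colour for the number of peaks. The dashed line marks the border of the ends: the sum is 239 in the first bin and 365 in the last bin before the line, and the dense runs differ in place from chromosome to chromosome.

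The peak nearest the centromere lay within 200 kb of the assembled start on 13 of 19 chromosomes and within 50 kb on 6 of them. The median offset was 109 kb and the smallest 4.48 kb, on chromosome 17. These 19 first peaks had a median of 69.7 ChIP reads per bin (range 49.9 to 385) over 15.6 input reads (3.83 to 85.8), and a median log2 ratio of 0.98 (0.60 to 2.45). Input was above the median of the rest of the same chromosome in 15 of 19 first peaks and ChIP in 13, and the log2 ratio was below it in 14. The first peak of chromosome 17, from 3004476 to 3006020, had 98.6 ChIP reads over 25.6 of input, which is 1.59 times the scaled input (1.38 to 1.85). The first peak of chromosome 13, from 3167027 to 3168199, went the other way, with 51.8 ChIP reads over 3.83 of input, 5.59-fold (3.66 to 8.95). Whether the first peaks differ from others was not tested.

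No difference in median width or in median ChIP passed the test. The members' median width was 3266 bp (95% interval of the median 3117 to 3450 bp), against 3162 bp from 8 to 13 Mb and 3084 bp beyond 8 Mb. Median ChIP was 58.8 reads per bin (58.5 to 59.1), against 59.4 and 58.8. Peaks of 10 kb or more made up 3.64% of members (56 peaks, exact 95% interval 2.76 to 4.71%) and 4.34% of the rest. Peaks under 1 kb made up the same 3.64% (56 peaks, 2.76 to 4.71%) and 5.14% of the rest (4.92 to 5.38%). Shares of these width classes were not tested. Over the 18 chromosomes with at least 5 members, a limit that left out chromosome 14, the median difference in width was 150.2 bp from the next 5 Mb (adjusted p = 0.779, exact Wilcoxon signed-rank test) and 53.2 bp from the rest (adjusted p = 1). For ChIP the differences were -0.768 and 0.944 reads per bin (adjusted p = 0.544 for both, exact Wilcoxon signed-rank test).

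Input was somewhat higher at the ends than in the rest of the chromosomes, and the ratio of ChIP to input somewhat lower, but neither passed the test after adjustment. Median input was higher at the end on 12 of 18 chromosomes, by a median of 0.776 reads per bin (mean of chromosome medians 12.9 ± 1.29 against 12.1 ± 0.401, SD; p = 0.0268, adjusted p = 0.29, exact Wilcoxon signed-rank test). The deposited log2 ratio was lower on 13 of 18, by a median of -0.05 (means 1.14 ± 0.10 and 1.19 ± 0.04, SD; p = 0.0483, adjusted p = 0.29, exact Wilcoxon signed-rank test). Against the next 5 Mb the differences were 0.0746 reads per bin and 0.01 on the log2 scale (adjusted p = 1 for both, exact test). Of the 12 tests, 0 passed after adjustment and 2 had an unadjusted exact p under 0.05.

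The lower log2 ratio passed the test in 3 alternatives. Without peaks of low input the median difference was -0.05 with an adjusted p of 0.00641 (exact Wilcoxon signed-rank test), with peaks under 1 kb apart merged it was -0.06 (adjusted p = 0.0337), and without chromosomes 7 and 17, a choice made after seeing the data, -0.06 (adjusted p = 0.0322). Over all its alternatives other than leaving out single chromosomes the adjusted p ran from 0.00641 to 1. The paired differences had a mean of -0.06 and an SD of 0.10 over the 18 chromosomes. Leaving out peaks of low input, by a limit chosen after values were seen, selects on the denominator of the tested ratio. Such peaks made up 2.28% of the ends and 0.87% of the rest. Without them the end's median log2 ratio went from 1.34 to 1.11 on chromosome 7 and from 1.29 to 0.91 on chromosome 17. This pair held 27 of the 35 low-input members, so leaving it out makes much the same cut. Both passes are thus partly built into the selection and are not separate evidence of a lower ratio. Merging close peaks also joined low-input peaks, among them the widest member, on chromosome 17, with its neighbour across the border. How far the pass with merged peaks depended on low-input peaks was not tested.

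**Figure D3:**
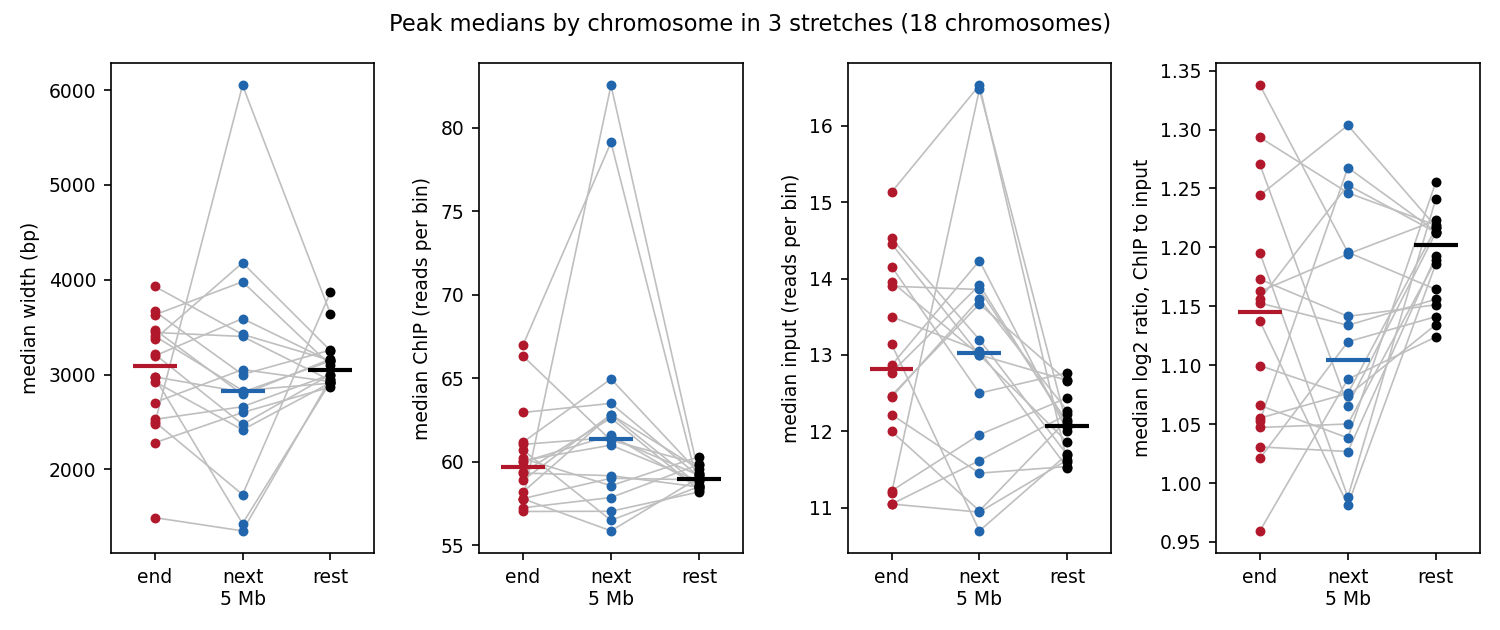
Median width (bp), ChIP and input (reads per bin) and log2 ratio of ChIP to input for each of 18 autosomes at the pericentromeric end (red), in the next 5 Mb (blue) and in the rest of the chromosome (black). Thin lines join the values of 1 chromosome and thick bars are medians over chromosomes; the red and blue points overlap in all 4 panels, and the black points, each a median over a longer stretch, span less.

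Ends with many peaks had lower input and lower ChIP per peak. Over the 18 chromosomes, Spearman's rho of the number of members with their median input was -0.69 (Pearson's r -0.71) and with their median ChIP -0.79 (r -0.65). With median width it was 0.57 (r 0.64) and with the log2 ratio 0.38 (r 0.32). Without the ends of chromosomes 3 and 13, r was -0.68 for input, -0.63 for ChIP, 0.56 for width and 0.26 for the log2 ratio. The stretches from 8 to 13 Mb gave rho of -0.63, -0.76, 0.88 and 0.25 for the same measures over 19 chromosomes. These are descriptions, with no p, of values from the same libraries. The end of chromosome 3 had a median width of 3930 bp with 57.0 ChIP and 11.05 input reads per bin. The end of chromosome 16, with 40 peaks, had 1492 bp, 67.0 ChIP and 15.1 input reads. Across the 1502 members that were not low in input, ChIP and input rose together (rho 0.64), as they did in the rest (0.69).

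A quality flag of the authors, which the labels do not define, was carried by 411 members (26.7%, exact 95% interval 24.5 to 29.0%). In the whole list 30.8% of peaks carried it. From 8 to 13 Mb the share was 30.6%. By chromosome the share at the end was below that of the rest on 10 of 18 and above it on 8, and this difference was not tested. Among the 18 chromosomes it ran from 20.3% on chromosome 9 to 61.8% on chromosome 17, where it was 45.8% in the 24 members that were not low in input. The densest end, on chromosome 3, had 27.5%, against 24.8% in its rest.

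A mean p over bins of at most 0.05 was met by 49 members (3.19%, exact 95% interval 2.37 to 4.19%), against 3.17% in the whole list, a share near that of the list. The labels do not say how the p of a bin was obtained. They were concentrated on chromosomes 7 (15 peaks) and 17 (11), and without this pair the share was 1.59% (23 of 1449 peaks, 1.01 to 2.37%). The pair was left out after its values were seen; without it the share beyond 8 Mb was 2.65% (872 of 32899 peaks, 2.48 to 2.83%). Of the 49, 25 were low in input. Low input means a mean below 0.25 times the median of the list, that is below 2.98 reads per bin. The median log2 ratio was 5.44 in these 25 and 1.46 in the other 24.

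Peaks of low input numbered 35 at the ends (2.28%, exact 95% interval 1.59 to 3.15%), against 0.93% from 8 to 13 Mb and 0.87% beyond 8 Mb. Chromosomes 7 and 17 held 27 of the 35, and the other 17 ends together held 8 (0.552%, 0.239 to 1.08%), against 0.809% beyond 8 Mb on the same 17 chromosomes. On chromosome 7, 17 neighbouring peaks from 5616237 to 5778412 held no input read at all. They covered 71.9% of these 162 kb and had 34.1 to 51.8 ChIP reads per bin (median 40.8). On chromosome 17, 9 peaks from 5810309 to 5927984 covered 89.4% of 118 kb, with 36.6 to 52.1 ChIP reads per bin, and 7 of them had no input read. A further peak from 7941430 to 7977885, the widest member with 36456 bp, had 49.9 ChIP reads over 0.0656 of input. Its neighbour from 7978461 to 8003087, which crossed the border and is not a member, had 50.5 over an input of 0. That neighbour was 1 of 9 peaks stopping from 8 to 9 Mb on chromosome 17. All 9 were low in input, with a median input of 0, and they were most of the 13 low-input peaks from 8 to 13 Mb. The border thus lay between low-input peaks of chromosome 17.

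ChIP in every member of these blocks was below 58.9 reads per bin, the median of the 1502 members that were not low in input. Their high ratios thus stood over an input at or near 0 and not over a high ChIP count. The 5 largest log2 ratios of all members, 5.61 to 5.67, were all in the blocks on chromosomes 7 and 17 and had an input of 0. Where input is 0 the deposited ratio depends on the value that was added to it. Over the peak from 5867004 to 5879545 on chromosome 17 the summed counts were 3283 for ChIP and 0 for input, and from 5662159 to 5667924 on chromosome 7 they were 1518 and 0. The other 37 members on chromosome 7 had 61.4 ChIP and 12.1 input reads per bin with a log2 ratio of 1.11, and the other 24 on chromosome 17 had 67.3, 15.3 and 0.91. Both medians lay below the 1.15 of all members.

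**Figure D4:**
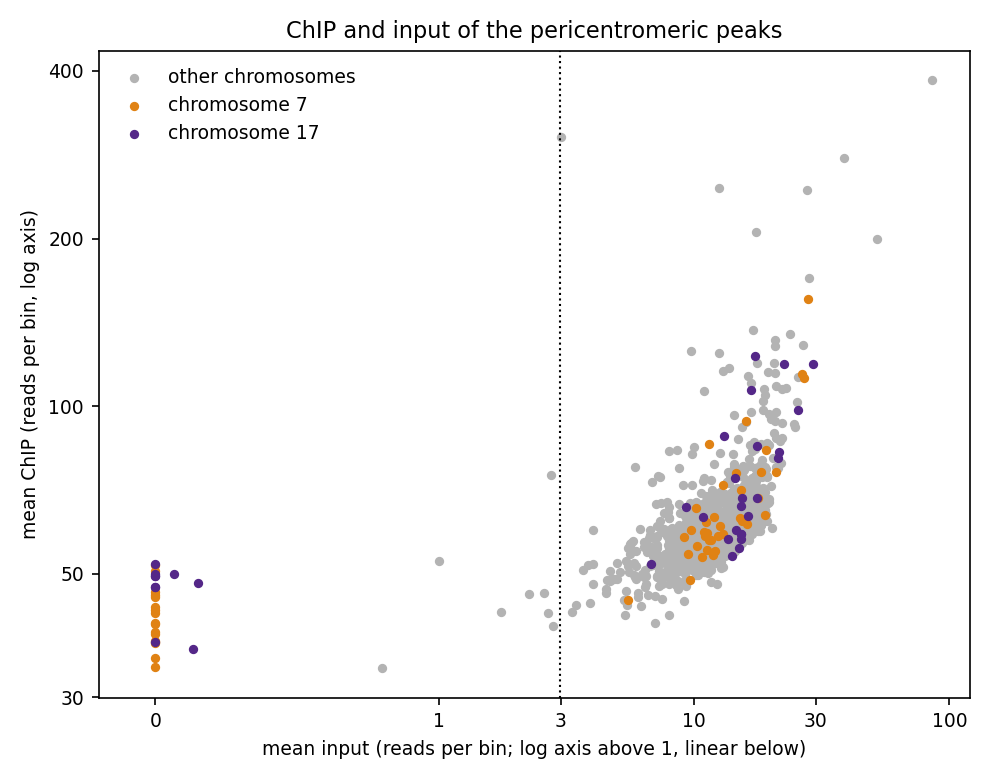
Mean ChIP against mean input (reads per bin) of the 1537 members, with chromosome 7 in orange, chromosome 17 in purple and other chromosomes in grey; the dotted line is the border of low input at 2.98. The 27 members of lowest input belong to chromosomes 7 and 17 and lie between 34.1 and 52.1 ChIP reads per bin, and 8 members of low input on other chromosomes lie between them and the line, while the other peaks form 1 cloud in which ChIP rises with input.

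Among the 5 members with the highest ChIP, the one on chromosome 14 is described above, and the others stood over 3 to 38.8 input reads per bin. The highest of these others was on chromosome 18, from 7319892 to 7323599, at 304.5 ChIP and 3 input reads per bin. It was 42.0-fold over scaled input (32.3 to 55.5), and its input lay just above the border of low input. On chromosome 5, from 7276000 to 7277799, 246.7 ChIP reads stood over 12.6 of input, 8.12-fold (6.72 to 9.90), and the highest bin held 760 reads. On chromosome 12, from 5160201 to 5161011, 244.2 reads stood over 27.8 (3.63-fold, 3.04 to 4.36), and on chromosome 15, from 5066236 to 5067011, 279.2 stood over 38.8 (2.97-fold, 2.56 to 3.47). In this last pair input was more than 2 times the median of the list, and 16 members (1.04%) passed that limit, against 1.39% of the rest.

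Among members with ChIP at or above the median of the list, the largest deposited log2 ratio of a chromosome was from 0.82 on chromosome 14 to 5.28 on chromosome 18. It was between 1.70 and 2.75 on 16 of the 19. This ratio is a mean over bins and could differ from the fold of summed counts in either direction. On chromosome 17 a ratio of 1.70 went with 1.80-fold (1.40 to 2.34) and on chromosome 10 one of 2.44 with 2.64-fold (2.14 to 3.29). On chromosome 5 a ratio of 2.52 went with 8.12-fold (6.72 to 9.90). On chromosome 9 a peak of 562 bp from 3512121 to 3512682 had a log2 ratio of 3.83, from 75.2 ChIP and 2.75 input reads per bin. On chromosome 15 the peak from 3837111 to 3837716 had 60 reads over 4 (6.20-fold, 3.46 to 12.2), and on chromosome 16 the peak from 7011860 to 7013154 had 125.7 over 9.71 (5.35-fold, 4.18 to 6.95). On chromosome 6 the peak from 3751530 to 3752930 had 77.6 over 5.88 (5.46-fold, 4.06 to 7.51).

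The widest members were of different kinds. Beside the low-input peaks of chromosomes 7 and 17, the widest were from 4418109 to 4439792 on chromosome 9 (21684 bp), with 55.1 ChIP reads over 12.3 of input, and from 5042148 to 5062252 on chromosome 13 (20105 bp), with 54.0 over 12.0. Both were 1.85 times the scaled input (1.74 to 1.96 and 1.74 to 1.97). A peak of 17835 bp on chromosome 16, from 3232050 to 3249884, combined width with high input, at 199.4 ChIP reads over 52.3, and was 1.58 times the scaled input (1.53 to 1.63). It and the single peak of chromosome 14 were 2 of the 11 peaks in the whole list whose input was over 4 times the median.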

How the data were processed

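Sonicated chromatin from dentate gyrus was sequenced as single reads of 100 bp from libraries of 350 bp on average, per the labels. The submitters' processing notes name Bowtie 0.12.7 and the build mm9. The peak caller, the treatment of repeated and duplicate reads and how libraries were pooled are not stated in the labels. The mean ChIP and input of a peak are signal in reads per bin, per the file headers, and the highest bin is a whole-number count, per the file headers. The deposited log2 ratio of ChIP to scaled input is a mean over a peak's bins, per the file headers, and the authors' scaling of input was a constant of 2.42. By its name, the deposited −log10 p-value stands for the mean p of a peak's bins. Width, highest bin and flag were used as deposited; listed peaks all had ChIP above scaled input (lowest log2 ratio 0.59), and no peak had under 30 ChIP reads per bin.

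The stretch, its borders and the peaks to name were chosen with earlier results of these data known. Peaks were assigned by their stop; the rest of a chromosome ends at its last peak. Medians needed 5 peaks in both stretches. The number of bins of about 200 bp was taken as the number nearest to width over 200 that made both sums whole (tolerance 1e-06), and it lay within 1 of it in 83.1% of members. Folds are summed ChIP over scaled summed input with exact binomial 95% intervals, and none is given where input is 0. Intervals cover counting error only, since reads are not independent molecules. Named peaks are, on each chromosome, the one nearest the centromere and the one with the largest log2 ratio at or above the median ChIP, and over all members the 5 widest, the 5 highest in ChIP and the 5 highest in log2 ratio; other peaks named, as well as the limits on input, were chosen after values were seen. Genes are the first 6 protein-coding genes with an established name in RefSeq order on GRCm38.p6, from which rows on alternate scaffolds were left out, and only some are named. Sequence, satellites, assembly gaps and mappability were not analysed here. On simulated data a density ratio made as 2 came back as 2.04 and 1.99 in 37517 peaks. The simulated peaks were placed at random with the same excess on every chromosome, unlike the real ones. This checks the computation only, and not how well the differences reported here could be detected. Python 3.11.15, numpy 2.4.6, pandas 2.3.3, scipy 1.17.1 and matplotlib 3.10.9 were used.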

Additional observations from a re-analysis of the deposited data

How the results depend on the processing

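The pooled density ratio depended on the border and on single chromosomes. With the border at 10 Mb it was 0.848 to the next 5 Mb and 0.956 to the rest, and with the border at 6 Mb 0.983 to the rest. Among peaks with the quality flag the ratios were 0.960 and 0.902, and among those with a mean p of at most 0.05 the ratio to the rest was 1.11. With density counted from the first peak of each chromosome they were 1.20 and 1.13. With ChIP at or above the median the ratio to the next 5 Mb was 1.02. Leaving out 1 chromosome at a time gave 1.02 (without chromosome 8) to 1.17 against the next 5 Mb and 0.952 (without chromosome 3) to 1.10 (without chromosome 14) against the rest. The cause of these shifts was not tested. The paired differences stayed on the same side of the threshold in all other alternatives run, leaving out each chromosome included, except the log2 ratio against the rest. Its median difference was -0.0546 without peaks of low input, -0.0592 with close peaks merged and -0.0586 without chromosomes 7 and 17, each past the threshold. This last setting, the limit on input and medians from at least 20 peaks were chosen after seeing the data. The limit on input selects on the denominator of the log2 ratio, and leaving out chromosomes 7 and 17 removes most low-input members. Passing with either is therefore not separate evidence of a lower ratio. How far the pass with close peaks merged depended on low-input peaks was not tested. Medians among peaks with a mean p of at most 0.05 were not computed, as too few chromosomes held 5. No paired analysis was possible because ChIP and input are given pooled over their libraries, and leaving out a library was not possible for the same reason. Depth per library is unknown, and sites with fewer ChIP reads than the lowest in the list would not appear in it.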
